A study of Homo sapiens with 12 samples.

Results

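The Hippo pathway genes examined here were the coactivators YAP1 and WWTR1 (which encodes the protein TAZ), the DNA-binding partners TEAD1, TEAD2, TEAD3 and TEAD4, the kinases LATS1 and LATS2, and the target genes ANKRD1 and AMOTL2. They were chosen by symbol, and each of the 10 symbols matched 1 of the 48114 genes in both tables of expression values. Pancreatic ductal adenocarcinoma (PDAC) lines were used. PANC-1, a line that the study uses as basal-like, received a control siRNA (siCtrl) or siRNAs against the splicing regulators QKI (siQKI) or RBFOX2 (siRBFOX2), and HPAF-II, which it uses as classical, received siCtrl. There were 3 biological replicates in each of the 4 groups, the siRNAs against QKI and RBFOX2 were used at 40 nM, and RNA was collected after 48 h. Each group is 1 cell line, the siQKI and siRBFOX2 groups are transient knockdowns, and HPAF-II cells were studied with siCtrl only.

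In the Hippo pathway, kinases of the STK3 and STK4 pair, helped by SAV1, MOB1A, MOB1B and NF2, activate LATS1 and LATS2, which phosphorylate YAP and TAZ and so keep them out of the nucleus. Unphosphorylated YAP and TAZ have no DNA-binding domain of their own, and they bind TEAD proteins, which recognize the core sequence GGAATG, to activate genes such as CCN1, CCN2 and ANKRD1. LATS2 and AMOTL2 are both targets and inhibitors of YAP and TAZ, and form a negative feedback. In the pancreas, YAP and TAZ are known for their part in ductal identity. RNA levels do not show whether YAP and TAZ are phosphorylated or nuclear.

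Promoter windows of the members were searched for the TEAD core, and those that held it are shown. RefSeq windows (GRCh38.p14) of 300 bases, from 250 bases before to 50 bases after a start site, were found for 8 of the 10 members, with 12 windows in all, and were not found for TEAD1 and TEAD4. GGAATG was searched on both strands, so that CATTCC also counts, and the matches stand in capitals below. Of all 35116 windows, 14% held a match, 1.37% held at least 2 and 0.128% at least 3. CCN2, a classical YAP target that is no member, is printed for comparison. Each sequence is written 5′ to 3′ on the strand of its gene.
CCN2 (chr6:131951323-131951622, minus strand): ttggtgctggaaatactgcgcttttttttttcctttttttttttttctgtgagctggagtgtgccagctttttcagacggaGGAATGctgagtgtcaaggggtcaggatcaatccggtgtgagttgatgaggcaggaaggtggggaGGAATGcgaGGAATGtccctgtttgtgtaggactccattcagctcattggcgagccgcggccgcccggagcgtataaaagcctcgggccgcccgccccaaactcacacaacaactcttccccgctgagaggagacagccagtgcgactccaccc
ANKRD1 (chr10:90921038-90921337, minus strand): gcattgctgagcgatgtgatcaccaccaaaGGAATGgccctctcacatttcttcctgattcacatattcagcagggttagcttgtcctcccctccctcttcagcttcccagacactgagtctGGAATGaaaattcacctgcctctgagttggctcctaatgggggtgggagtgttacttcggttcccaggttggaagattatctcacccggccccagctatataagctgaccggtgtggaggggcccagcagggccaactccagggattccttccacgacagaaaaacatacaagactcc
LATS2 (chr13:21061537-21061836, minus strand): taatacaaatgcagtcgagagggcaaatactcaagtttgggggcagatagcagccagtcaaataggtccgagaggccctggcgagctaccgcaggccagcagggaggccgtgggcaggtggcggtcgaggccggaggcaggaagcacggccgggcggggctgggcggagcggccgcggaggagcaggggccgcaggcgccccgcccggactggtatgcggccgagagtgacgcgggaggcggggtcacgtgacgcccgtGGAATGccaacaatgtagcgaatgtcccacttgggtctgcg
AMOTL2 (chr3:134374398-134374697, minus strand, the second of 2 windows): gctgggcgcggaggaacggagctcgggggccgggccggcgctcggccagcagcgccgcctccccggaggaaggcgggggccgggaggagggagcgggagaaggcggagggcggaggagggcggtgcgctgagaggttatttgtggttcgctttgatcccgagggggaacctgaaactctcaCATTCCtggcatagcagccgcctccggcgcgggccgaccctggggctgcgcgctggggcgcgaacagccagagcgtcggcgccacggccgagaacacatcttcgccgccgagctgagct
YAP1 (chr11:102110197-102110496, plus strand): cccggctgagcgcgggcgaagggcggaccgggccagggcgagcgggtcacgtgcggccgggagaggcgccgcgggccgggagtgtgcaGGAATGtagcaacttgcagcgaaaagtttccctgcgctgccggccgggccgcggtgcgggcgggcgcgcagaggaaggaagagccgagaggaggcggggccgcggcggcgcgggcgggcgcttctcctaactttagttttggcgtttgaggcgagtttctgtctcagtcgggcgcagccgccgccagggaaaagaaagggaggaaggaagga
CCN2 had 3 matches, which began 169, 104 and 95 bases before the start site. ANKRD1 had 2, which began 220 and 128 bases before it, while YAP1 had 1 at 162 bases before it, AMOTL2 had 1 on the other strand at 69 bases before it and LATS2 had 1 that began at base 10 of the transcript. The windows of WWTR1, TEAD2, TEAD3 and LATS1 and the first window of AMOTL2 did not hold these letters. A match describes the sequence and is not evidence of binding in these cells.

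QKI and RBFOX2 bind RNA, and their known recognition letters were searched in the longest protein-coding transcript of each member in GENCODE v29 (GRCh38, introns not included). ACTAAC or ACTAAT, the core of the QKI element, occurred in 6 of the 10 members, with 6 matches in TEAD1, 4 in WWTR1, 2 each in LATS1 and AMOTL2 and 1 each in YAP1 and LATS2. TGCATG, the RBFOX element, occurred in 7 members, with 3 matches in TEAD1, 2 each in LATS2 and ANKRD1 and 1 each in YAP1, TEAD2, TEAD3 and LATS1. The matches of WWTR1 are printed, because WWTR1 was the member that changed most. They lie on the minus strand of chromosome 3, 1 in the coding sequence and 3 in the 3′ UTR, with the match in capitals.
WWTR1 coding sequence (chr3:149527850-149527879): atgagatccatcACTAATaatagctcagat
WWTR1 3′ UTR (chr3:149520045-149520074): gaccagtttggtACTAATtatgagcatttt
WWTR1 3′ UTR (chr3:149519115-149519144): ttaatattttgaACTAATattatttataat
WWTR1 3′ UTR (chr3:149518146-149518175): ccctttgtgtttACTAATagataaagccag
Among the 1737 coding genes whose longest transcript was within 10% of that of WWTR1 in length, 63.1% held at least 1 QKI match and 7.66% held 4 or more. For TEAD1, 80.4% of 708 genes of like length held at least 1 match and 8.47% held 6 or more. Most transcripts of these lengths thus held the QKI letters at least once. TGCATG occurred in 32.3% (TEAD4) to 89% (TEAD1) of the genes of like length to each member. WWTR1 held no TGCATG, and 72.1% of the genes of like length held it. QKI matches occurred in members that fell in siQKI cells (WWTR1, LATS2), rose (TEAD1) or were not called (LATS1, AMOTL2, YAP1). ANKRD1 fell and TEAD2 rose without a match. Outside the members, CCN1 fell with 1 match, and CCN2 and NF2 fell with none. For NF2, 71.7% of the genes of like length held at least 1. The part of QKI binding in these changes was not tested.

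The deposited values are normalized gene counts, scaled per library by the authors with the size factors of DESeq2. Totals were 321833858 to 348181159 normalized counts in the PANC-1 libraries and 279777377 to 287232882 in the HPAF-II libraries, and a unit of the counts is not 1 sequenced fragment, so that precision was taken from the replicates. Knockdown was checked first. QKI fell to 19.7% of siCtrl in siQKI cells (log2 fold change -2.34, SE 0.06, adjusted p = 9.15e-13 from limma), and RBFOX2 fell to 13.6% in siRBFOX2 cells (-2.89, SE 0.09, adjusted p = 4.70e-11). In siQKI cells RBFOX2 fell too, to 81.9% of siCtrl (adjusted p = 0.0207). The 5 ductal or epithelial markers were summed as counts rescaled to a total of 1000000. They summed to 2129 to 2706 in the PANC-1 libraries and to 10736 to 11688 in the HPAF-II libraries. Within PANC-1 the sums were 2547 to 2640 in siCtrl, 2551 to 2706 in siQKI and 2129 to 2285 in siRBFOX2 libraries. KRT8, KRT18 and KRT19 made up nearly all of the PANC-1 sums. KRT7 and EPCAM were detected in PANC-1, but at far lower means than in HPAF-II. Acinar, endocrine, leukocyte and endothelial lists summed to at most 0.877 in any library, and INS and GCG were at 0 in every library. The 4 fibroblast markers summed to 11.2 to 12.6 in siCtrl, 23.1 to 26.9 in siQKI and 13.5 to 20.7 in siRBFOX2 libraries of PANC-1. Nearly all of this was COL1A1, with DCN at 0 in these 9 libraries and COL1A2 and LUM at 0 in siCtrl. In the HPAF-II libraries the 4 markers summed to 19 to 23.1, again mostly COL1A1, and all 4 were detected in the group. The part of these signals in the results was not tested.

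The first question was whether the effectors of the pathway changed when QKI was depleted. WWTR1 changed most, and fell to 39.1% of siCtrl, while YAP1 was at 105%. LATS2 and ANKRD1 also fell, TEAD1 and TEAD2 rose, and the other members did not pass the test. Tests used limma on log2(normalized count + 1) over 22544 genes, those whose mean reached 10 in the 9 PANC-1 libraries, with Benjamini-Hochberg adjustment and a threshold of 0.05. In siQKI cells 33.0% of all genes tested passed it (14.9% higher and 18.1% lower), against 5 of the 10 members (2 higher and 3 lower). Libraries of the groups did not overlap for 44.7% of all genes and for 8 of the 10 members. The split of all calls was sensitive to scaling, since 45.2% of them were higher with the authors' size factors and 58% after rescaling by the upper quartile. The median log2 fold change of the members was -0.05, beside 0.03 over all genes. With this background and 10 members, the counts say little about the members as a set, and the results below concern single genes.

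**Figure D1:**
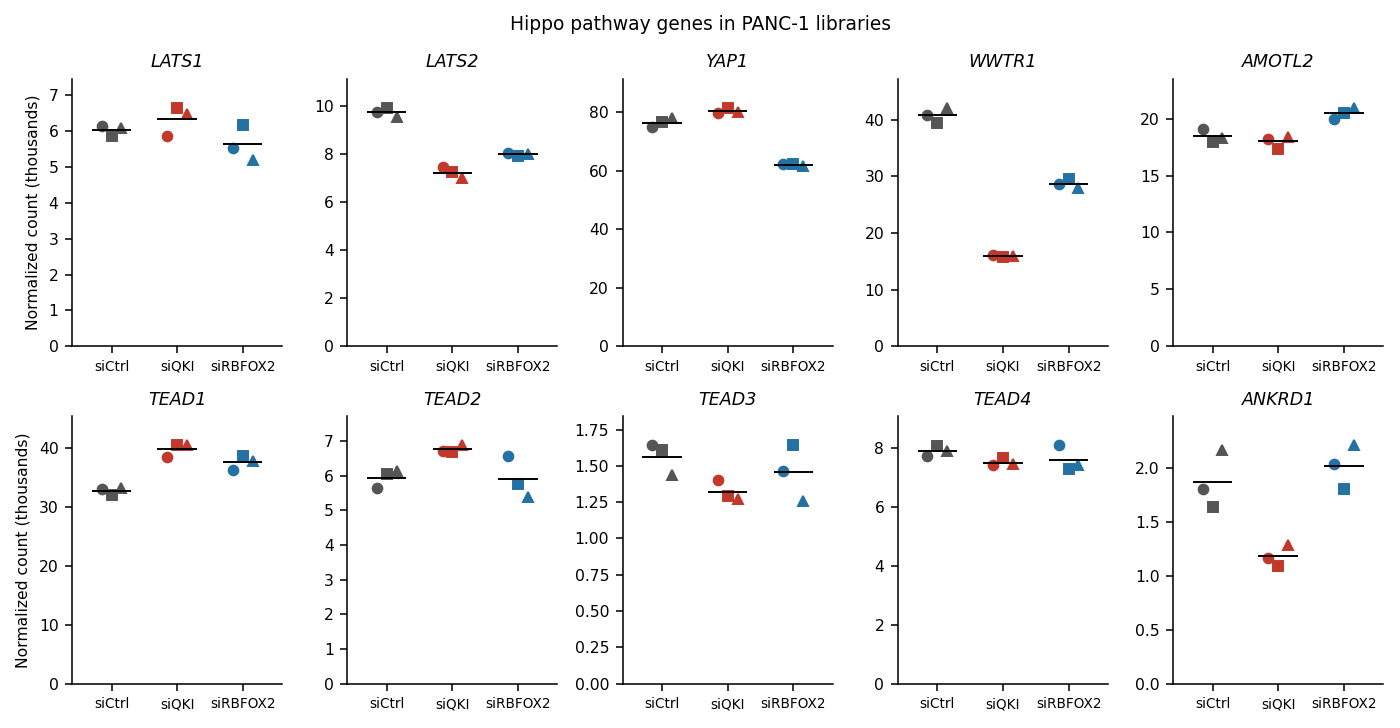
Normalized counts (axes from 0, units of 1000) of the 10 members in each PANC-1 library, by siRNA. Circles, squares and triangles are replicates 1, 2 and 3, and the line is the mean of the group. WWTR1 libraries fall into 3 separate levels, and LATS2 is lower in both knockdowns.

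WWTR1 (GSHG0031856 in the FAST DB annotation used by the authors; hg38 chromosome 3, 149517235 to 149736714) had 40795, 39313 and 42135 normalized counts in siCtrl cells. It had 16039, 15785 and 15949 in siQKI cells and 28698, 29533 and 27854 in siRBFOX2 cells. The groups did not overlap, siQKI was the lowest and siRBFOX2 was in between. The log2 fold change was -1.35 in siQKI cells (95% confidence interval -1.44 to -1.27, adjusted p = 9.09e-12 from limma) and -0.51 in siRBFOX2 cells (-0.59 to -0.42, adjusted p = 4.47e-07), where 70.4% remained. Of 11085 genes whose mean reached 1000, 20 had a log2 fold change at or below that of WWTR1 in siQKI cells, WWTR1 included, and 301 in siRBFOX2 cells. Set against each other, siQKI was below siRBFOX2 by -0.85 (-0.94 to -0.76, adjusted p = 3.27e-09). In these bulk libraries, less RNA per cell and fewer cells with the RNA cannot be told apart.

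WWTR1-AS1, an antisense RNA on the other strand, shares 627 exon bases with WWTR1 in GENCODE v29, and whether counting used strand is not stated, so that reads in this shared stretch cannot be assigned to either gene. Most of the 5367 exon bases of WWTR1 and of the 2573 of WWTR1-AS1 are not shared. WWTR1-AS1 had 568, 662 and 502 normalized counts in siCtrl cells, 268, 346 and 216 in siQKI cells and 465, 539 and 463 in siRBFOX2 cells. The siQKI libraries were below all others, and the change was -1.08 (SE 0.20, adjusted p = 5.45e-04 from limma). WWTR1 had 45.6 to 83.9 times the count of WWTR1-AS1 in the PANC-1 libraries.

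YAP1 (GSHG0006673; chromosome 11, 102110447 to 102233424) had 74937, 76716 and 77994 normalized counts in siCtrl cells and 79827, 81704 and 80187 in siQKI cells. The siQKI libraries were all above siCtrl, but the difference of 0.07 (95% confidence interval 0.00 to 0.15) did not pass the threshold (adjusted p = 0.109 from limma). It passed after upper-quartile rescaling (0.14, adjusted p = 0.00386). In siRBFOX2 cells YAP1 had 62318, 62444 and 61607, below every other PANC-1 library, and fell by 0.30 on the log2 scale to 81.2% (SE 0.03, adjusted p = 1.05e-05). The knockdowns differed from each other by 0.38 (siQKI higher, 0.30 to 0.45, adjusted p = 1.54e-06). WWTR1 thus fell in both knockdowns, and YAP1 fell in siRBFOX2 cells.

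The balance of the coactivators differed accordingly. The count of YAP1 divided by that of WWTR1 was 1.84 to 1.95 in siCtrl, 4.98 to 5.18 in siQKI and 2.11 to 2.21 in siRBFOX2 libraries. Levels of different genes were compared as rescaled counts per kb of exon (GENCODE v29), a scale on which YAP1 had 39.5 ± 0.532 and WWTR1 had 22.1 ± 0.907 in siCtrl cells (SD, n = 3). On it WWTR1 made up 35.8% ± 0.755 of the pair in siCtrl, 17.2% ± 0.288 in siQKI and 32.6% ± 0.498 in siRBFOX2 cells (SD, n = 3). The sum of the pair was 61.6 ± 1.35, 52.4 ± 0.844 and 49.5 ± 1.78 per kb in these groups (SD, n = 3). Both knockdowns were below siCtrl in every library, and their own ranges touched, at 51.5 to 53.2 for siQKI and 48.3 to 51.6 for siRBFOX2.

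**Figure D2:**
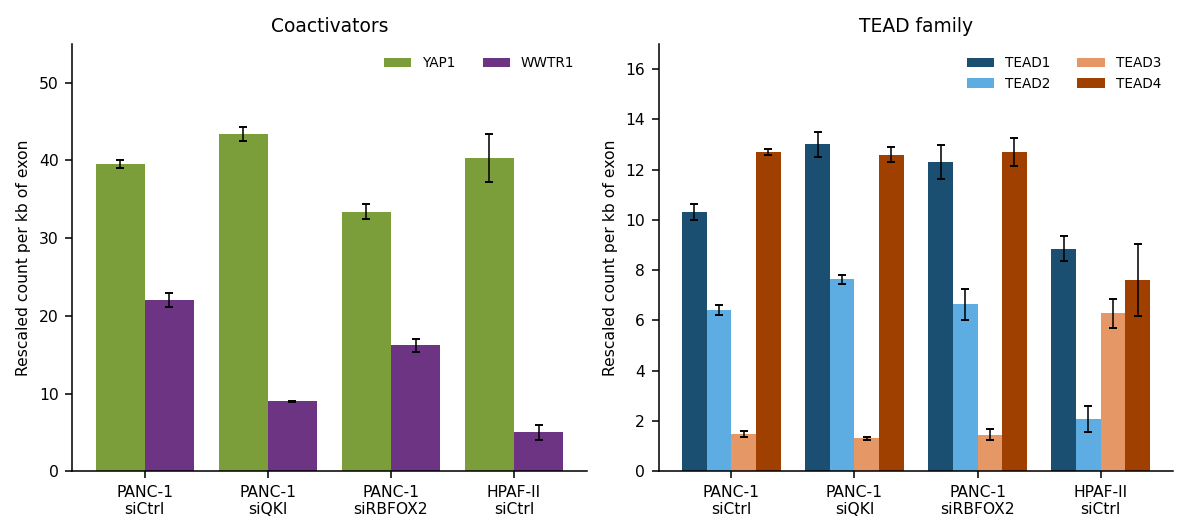
Rescaled counts per kb of exon (bars: mean, error bars: SD, n = 3 libraries) of the coactivators (left) and the TEAD family (right) in the 4 groups. WWTR1 goes from 22.1 in PANC-1 siCtrl to 8.99 in siQKI and 5.02 in HPAF-II, and TEAD3 from 1.49 in PANC-1 to 6.28 in HPAF-II.

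Of the LATS kinases, LATS2 fell in both knockdowns and LATS1 passed the test in neither. LATS2 (GSHG0011394; chromosome 13, 20973036 to 21061586) had 9783, 9950 and 9562 normalized counts in siCtrl, 7477, 7247 and 6991 in siQKI and 8058, 7944 and 8004 in siRBFOX2 cells. The groups did not overlap, with siQKI the lowest. The log2 fold change was -0.43 in siQKI (SE 0.05, adjusted p = 5.13e-06 from limma) and -0.29 in siRBFOX2 cells (SE 0.05, adjusted p = 3.70e-04). The difference between the knockdowns, -0.15 (adjusted p = 0.0408), lost its call in 12 of 17 alternatives. LATS1 (GSHG0038473; chromosome 6, 149658153 to 149718256) had 6151, 5857 and 6103 in siCtrl, 5872, 6664 and 6492 in siQKI and 5531, 6177 and 5193 in siRBFOX2 cells, and the groups overlapped. Its intervals were -0.08 to 0.22 in siQKI and -0.25 to 0.04 in siRBFOX2 cells, and per kb it made up 30.5% ± 0.909 of the LATS pair in siCtrl cells (SD, n = 3).

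AMOTL2, a scaffold protein of the angiomotin family that binds YAP and TAZ, had 19087, 17952 and 18266 normalized counts in siCtrl and 18234, 17376 and 18418 in siQKI cells (GSHG0031781; chromosome 3, 134355345 to 134375417). These groups overlapped, and the interval was -0.13 to 0.06. In siRBFOX2 cells it had 19986, 20507 and 20979, above all other PANC-1 libraries. It rose by 0.15 (SE 0.04, adjusted p = 0.0156 from limma), a call that was lost in 4 of 17 alternatives, 3 of them without siCtrl replicate 2 (adjusted p = 0.0674), siCtrl replicate 3 (0.0505) or siRBFOX2 replicate 3 (0.0533). siQKI was below siRBFOX2 by -0.19 (adjusted p = 0.00539). An unnamed locus, GSHG0031780, overlaps AMOTL2 and had a mean of 3524 ± 46.9 in siCtrl libraries (SD, n = 3), and other annotated loci overlap TEAD1, TEAD2, TEAD3 and LATS1, so part of their reads may be shared.

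Of the TEAD genes, only TEAD1 was called in both knockdowns, and the libraries of the other 3 overlapped siCtrl in siRBFOX2 cells. TEAD1 (GSHG0005949; chromosome 11, 12674421 to 12944737) had 33149, 32077 and 33299 normalized counts in siCtrl, 38475, 40524 and 40605 in siQKI and 36400, 38784 and 37932 in siRBFOX2 cells. Both knockdowns were above every siCtrl library and overlapped each other. TEAD1 rose by 0.28 (SE 0.04, adjusted p = 6.08e-05 from limma) and 0.20 (SE 0.04, adjusted p = 0.00161), and the knockdowns differed by 0.08 (SE 0.04, adjusted p = 0.182). TEAD2 (GSHG0023082; chromosome 19, 49340595 to 49362457) had 5655, 6043 and 6132 in siCtrl and 6720, 6674 and 6892 in siQKI cells, with no overlap. It rose by 0.19 (SE 0.07, adjusted p = 0.0469), a call that was lost in 10 of 17 alternatives, including each of the 6 without 1 siCtrl or siQKI library (adjusted p = 0.06 to 0.159) and the replicate block (0.0632). In siRBFOX2 cells TEAD2 had 6561, 5754 and 5385, on both sides of siCtrl.

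TEAD3 (GSHG0037899; chromosome 6, 35473597 to 35497079) had the lowest mean normalized count of the members over the PANC-1 libraries. It had 1641, 1612 and 1437 in siCtrl, 1401, 1293 and 1269 in siQKI and 1465, 1645 and 1255 in siRBFOX2 cells. The siQKI libraries lay below siCtrl, but the difference of -0.24 (-0.48 to -0.01) did not pass the threshold (adjusted p = 0.11 from limma). TEAD4 (GSHG0008564; chromosome 12, 2959330 to 3040676) had 7754, 8081 and 7899 in siCtrl, 7422, 7660 and 7453 in siQKI and 8117, 7291 and 7429 in siRBFOX2 cells. Here too the siQKI libraries lay below siCtrl, but the difference of -0.07 did not pass the threshold (adjusted p = 0.322 from limma). The intervals of TEAD4 were narrow, at -0.19 to 0.04 in siQKI and -0.17 to 0.06 in siRBFOX2 cells.

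Per kb, TEAD4 (12.7 ± 0.105) was the highest TEAD in siCtrl cells, followed by TEAD1 (10.3 ± 0.321), TEAD2 (6.43 ± 0.201) and TEAD3 (1.49 ± 0.114; SD, n = 3 for each), and no neighbours in this order overlapped. This order rests on the merged exon lengths of GENCODE, 1805 bases for TEAD4 and 9270 for TEAD1. By mean normalized count TEAD1 (32842) was above TEAD4 (7911). The counts were made on FAST DB genes and the transcripts in use are not known. The spread of replicates does not cover an error in length. In siQKI cells TEAD1 (12.5 to 13.3) and TEAD4 (12.3 to 12.9) overlapped. The share of TEAD1 in the family was 33.3% ± 0.882 in siCtrl, 37.7% ± 0.612 in siQKI and 37.2% ± 2.22 in siRBFOX2 cells (SD, n = 3). Over all members the order per kb in siCtrl cells, with the same limit, was YAP1, WWTR1, TEAD4, AMOTL2, TEAD1, TEAD2, LATS2, ANKRD1, LATS1 and TEAD3. The libraries of neighbours did not overlap, the closest being ANKRD1 (2.37 to 3.17) and LATS1 (2.17 to 2.34).

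ANKRD1, an ankyrin repeat protein often used as a readout of YAP, TAZ and TEAD activity, fell in siQKI but not in siRBFOX2 cells (GSHG0005296; chromosome 10, 90912096 to 90921276). It had 1805, 1636 and 2168 normalized counts in siCtrl and 1167, 1088 and 1291 in siQKI cells, with no overlap, and 2043, 1808 and 2217 in siRBFOX2 cells, which overlapped siCtrl. The log2 fold change was -0.66 in siQKI (SE 0.12, adjusted p = 4.27e-04 from limma), where 63.2% remained, and 0.12 in siRBFOX2 cells (-0.13 to 0.37, adjusted p = 0.519). The difference between the knockdowns was itself called, at -0.77 (-1.02 to -0.53, adjusted p = 1.89e-04).

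After depletion of RBFOX2, 26.5% of all genes passed the threshold (12.0% higher and 14.5% lower), against 5 of the 10 members, YAP1, WWTR1 and LATS2 lower and TEAD1 and AMOTL2 higher. Libraries did not overlap for 37.9% of all genes and for 5 of the 10 members. The largest of these changes was that of WWTR1, and no member changed by 1.5 times or more. Since siCtrl serves both comparisons, the knockdowns were also set against each other. In that contrast 21.5% of all genes passed (9.93% higher in siQKI and 11.6% lower), and 35.2% did not overlap, against 6 members each. YAP1 and TEAD2 were higher in siQKI, and WWTR1, ANKRD1, AMOTL2 and LATS2 lower. The call of TEAD2 (0.20, adjusted p = 0.0471 from limma) was lost in 12 of 17 alternatives.

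**Figure D3:**
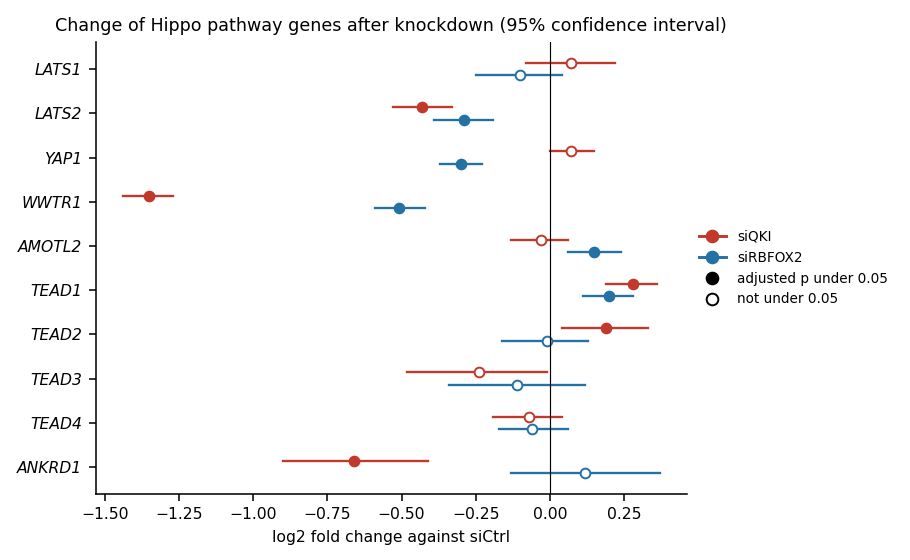
Log2 fold change of the 10 members against siCtrl with its 95% confidence interval, for siQKI (red) and siRBFOX2 (blue). Filled points passed the adjusted threshold of 0.05. WWTR1 stands apart at -1.35 in siQKI cells, and all other members lie between -0.66 and 0.28.

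CCN1 and CCN2, secreted matricellular proteins and the best known YAP and TAZ targets, fell in both knockdowns. CCN2 (GSHG0038382) had 141531, 143014 and 138928 normalized counts in siCtrl, 110741, 93637 and 93382 in siQKI and 77663, 73333 and 75294 in siRBFOX2 cells. The groups did not overlap, and here siRBFOX2 was the lowest. CCN2 fell to 70.3% in siQKI (log2 fold change -0.51, SE 0.05, adjusted p = 3.71e-06 from limma) and to 53.4% in siRBFOX2 cells (-0.90, SE 0.05, adjusted p = 2.80e-08), and the difference between them was called (0.39, adjusted p = 9.83e-05). CCN1 (GSHG0000773) had 323703, 317264 and 299128 in siCtrl, 257432, 230969 and 232352 in siQKI and 220196, 214162 and 230548 in siRBFOX2 cells. It fell to 76.7% (adjusted p = 1.68e-05) and 70.7% (adjusted p = 2.41e-06), and the difference between the knockdowns did not pass (0.12, adjusted p = 0.106). The order of the knockdowns for CCN2 was thus opposite to that for ANKRD1 and WWTR1.

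The wider set of 22 genes taken as a YAP/TAZ target signature moved in both directions. In siQKI cells 4 of the 22 rose and 11 fell, with a median log2 fold change of -0.15 beside 0.03 over all genes, and without the 3 members in it 4 rose and 9 fell of 19. Of all genes, 14.9% rose and 18.1% fell. All genes include many low ones, so this background is not matched in level to the signature or to the lists below. AXL, a receptor tyrosine kinase, fell to 55.8% (-0.84, adjusted p = 4.82e-10 from limma) and NT5E, the ectonucleotidase CD73, to 57.6% (-0.79, adjusted p = 9.78e-08). TGFB2, a growth factor of the TGF-β family, rose to 163% (0.70, adjusted p = 2.07e-08) and CRIM1, a membrane protein that binds growth factors, to 149% (0.57, adjusted p = 7.53e-09). In siRBFOX2 cells 8 rose and 7 fell, with a median of 0.07 beside 0.01 over all genes, of which 12.0% rose and 14.5% fell, and without the members 7 rose and 6 fell. IGFBP3, which binds insulin-like growth factors, rose from 1650 ± 183 to 5789 ± 621 normalized counts (SD, n = 3; 1.81, adjusted p = 2.17e-06), while in siQKI cells it had 2203 ± 656 (SD, n = 3; adjusted p = 0.113). TGFB2 rose in siRBFOX2 cells too (0.64, adjusted p = 1.19e-07), and NT5E fell (-0.78, adjusted p = 2.75e-07).

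**Figure D4:**
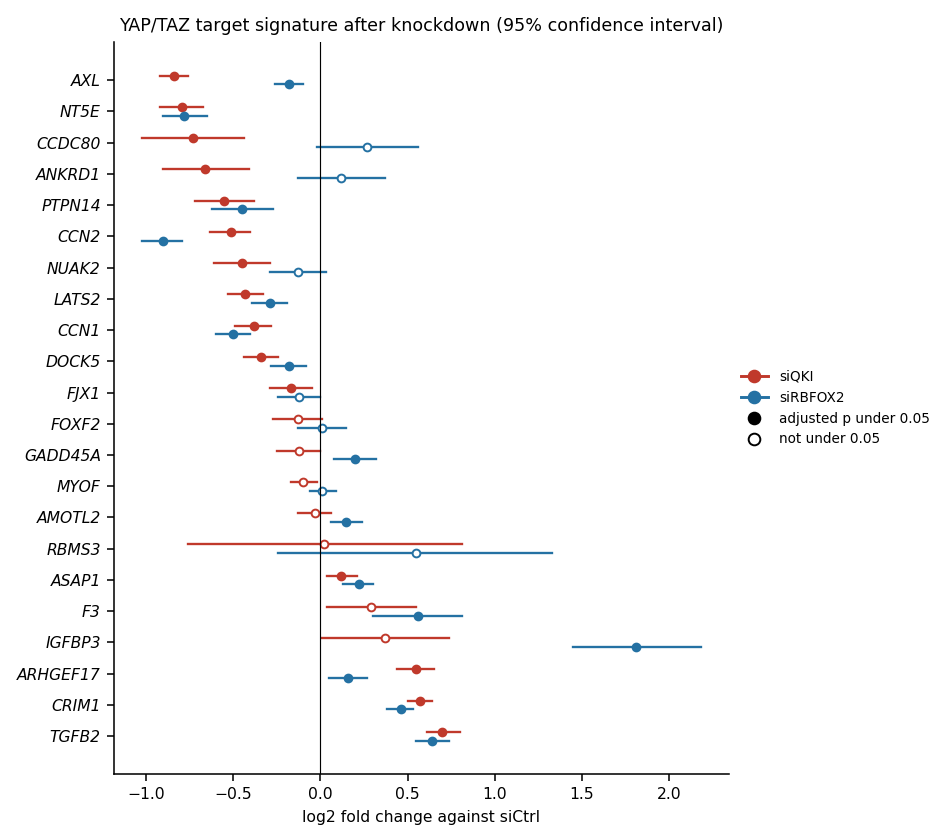
Log2 fold change against siCtrl with its 95% confidence interval for the 22 genes of the YAP/TAZ target signature, ordered by the value in siQKI cells (red, with siRBFOX2 in blue). Filled points passed the adjusted threshold of 0.05. In siQKI cells 11 genes fell and 4 rose, and in siRBFOX2 cells 7 fell and 8 rose.

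Upstream of LATS, the list of 26 kinases and adaptors had 5 members that rose and 11 that fell in siQKI cells, beside 14.9% and 18.1% of all genes, with a median of -0.08 beside 0.03. NF2, the tumor suppressor merlin that brings LATS kinases to the membrane, changed most of them. It had 52626, 49557 and 55283 normalized counts in siCtrl, 19334, 20124 and 18676 in siQKI and 43901, 43557 and 48406 in siRBFOX2 cells. The siQKI libraries were far below the others. NF2 fell to 36.9% in siQKI cells (-1.44, SE 0.05, adjusted p = 5.32e-11 from limma) and to 86.3% in siRBFOX2 cells (-0.21, SE 0.05, adjusted p = 0.00593), and the knockdowns differed by -1.22 (adjusted p = 7.95e-10). PTPN14, a phosphatase that binds YAP, fell to 68.5% in siQKI (adjusted p = 7.94e-05) and to 73.8% in siRBFOX2 cells (adjusted p = 7.29e-04). AJUBA, a LIM protein that restrains LATS kinases, rose to 145% (adjusted p = 1.81e-07) and 136% (adjusted p = 2.92e-06). TNIK, a kinase of the MAP4K group, rose in siQKI cells to 133% (adjusted p = 0.00732). In siRBFOX2 cells 4 of the 26 rose and 8 fell, beside 12.0% and 14.5% of all genes. Among them were WTIP, another LIM protein, at 125% (adjusted p = 3.55e-04) and SAV1, the scaffold of STK3 and STK4, at 77.7% (adjusted p = 0.00167).

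The STRIPAK phosphatase complex, which opposes STK3 and STK4, moved one way only among its called members. In each knockdown 8 of its 11 genes fell and 0 rose, with a median of -0.20 in both. STRIP2 fell to 53.2% in siQKI (-0.91, adjusted p = 2.57e-06 from limma) and to 80.8% in siRBFOX2 cells (-0.31, adjusted p = 0.0234), SIKE1 fell to 63.5% in siQKI cells (adjusted p = 7.80e-07) and STRN fell to 75.6% in siRBFOX2 cells (adjusted p = 2.47e-05). These are counts beside a background of 18.1% and 14.5% of all genes that fell, and no test of the list was made. STRIPAK means ran from 1837 (STRIP2) to 31892 (STK26), far above the filter of 10. With that filter raised to 50, 4176 of 17878 genes fell in siQKI cells, beside 4070 of 22544. In siRBFOX2 cells 3397 of 17878 fell, beside 3272 of 22544, so both shares were higher under the stricter filter. Whether the list differs from genes of like level was not tested. Of the FAT and DCHS cadherins, cell surface proteins that act upstream of the pathway, 4 of 6 were tested. FAT4 rose to 146% (adjusted p = 4.83e-04) and 136% (adjusted p = 0.00376) and FAT1 to 112% in both knockdowns (adjusted p = 0.00806 and 0.0109). Of the VGLL cofactors, which compete with YAP and TAZ for TEAD proteins, 1 of 4 was tested, and VGLL4 was at 90.5% in siQKI (adjusted p = 0.0228) and at 95.4% in siRBFOX2 cells (adjusted p = 0.311). Over the 60 tested pathway genes that are no members, 11 rose and 28 fell in siQKI and 13 rose and 21 fell in siRBFOX2 cells. Of all genes, 14.9% rose and 18.1% fell in siQKI and 12.0% rose and 14.5% fell in siRBFOX2 cells. Here too the background is not matched in level.

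The next question was how the members stood in HPAF-II, the classical line. The 2 tables were normalized apart, so values were rescaled to a total of 1000000 in each library, no test was made, and a difference was counted at 2-fold or more with libraries that do not overlap. By this rule 42.7% of the 24673 genes compared differed (21.1% higher and 21.6% lower in HPAF-II), and 63.7% did not overlap. Of the members, TEAD3 was higher and WWTR1, TEAD2 and LATS2 were lower, which as a share is near that background. Each subtype was 1 line, so line and subtype cannot be told apart.

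WWTR1 had rescaled counts of 120.4, 113 and 122 in PANC-1 siCtrl and of 29.5, 30.3 and 20.9 in HPAF-II libraries, a log2 ratio of -2.14. YAP1 had 221, 220.3 and 226 in PANC-1 and 227, 245 and 209.9 in HPAF-II, and the libraries overlapped. The YAP1 count was 7.67 to 10.1 times that of WWTR1 in HPAF-II libraries, and WWTR1 made up 11% ± 1.36 of the pair per kb (SD, n = 3). HPAF-II cells thus had the lowest WWTR1 share of the 4 groups at a YAP1 level that overlapped that of PANC-1 siCtrl.

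TEAD3 had 4.84, 4.63 and 4.16 in PANC-1 and 20, 17.2 and 20.2 in HPAF-II libraries, a log2 ratio of 2.07. TEAD2 had 16.7, 17.4 and 17.8 in PANC-1 and 5.13, 4.57 and 7.22 in HPAF-II libraries, a log2 ratio of -1.61. The makeup of the family differed accordingly, with TEAD3 at 4.82% ± 0.376 per kb in PANC-1 and 25.3% ± 0.146 in HPAF-II, and TEAD2 at 20.8% ± 0.665 and 8.41% ± 1.56 (SD, n = 3). TEAD1 (log2 ratio -0.22) and TEAD4 (-0.74) were lower in HPAF-II by less than 2-fold, with no overlap. In HPAF-II the per kb values of TEAD1 (8.37 to 9.37) and TEAD4 (5.99 to 8.65) overlapped, as did those of TEAD4 and TEAD3 (5.64 to 6.64).

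LATS2 had 28.9, 28.6 and 27.7 in PANC-1 and 13.7, 13.9 and 14.1 in HPAF-II libraries, a log2 ratio of -1.03 that is just past the 2-fold rule, and LATS1 overlapped (-0.09). AMOTL2 was higher in HPAF-II by less than 2-fold (0.50, no overlap), and ANKRD1 overlapped (-0.53). NF2 was lower (log2 ratio -1.43), at 61.2, 71.4 and 37.7 against 155, 142 and 160.1 in PANC-1. HPAF-II replicate 3 lay apart from the other HPAF-II libraries for several genes. It was lower for NF2 and MAP4K5 (115, 115 and 62.4) and higher for STRN4 (51.9, 47.7 and 78.1). The cause was not tested. Of the 26 kinases and adaptors, 10 were lower in HPAF-II, NF2 included, and 5 were higher, namely TNIK, SAV1, MAP4K5, WWC1 and TAOK3. By the same rule 21.6% of all genes were lower and 21.1% higher. TNIK had 67 ± 13.5 rescaled counts in HPAF-II against 3.32 ± 0.0625 in PANC-1, and SAV1 had 56.2 ± 6.05 against 12.2 ± 0.428 (SD, n = 3). VGLL1 and VGLL3 were also higher, at low levels of 0.958 ± 0.308 and 1.19 ± 0.296 in HPAF-II (SD, n = 3), with VGLL1 listed at 0 in the PANC-1 siCtrl libraries. Those of these genes that are outside the rule for named genes were chosen after their values were seen. Of the 22 signature genes, 3 were higher and 13 lower in HPAF-II, beside 21.1% and 21.6% of all genes, with a median log2 ratio of -1.30 beside 0.08. Without the 3 members in it, 3 were higher and 12 lower of 19. CCN1 had 49.6 ± 3.39 rescaled counts in HPAF-II against 911 ± 44.5 in PANC-1, and CCN2 had 82 ± 11.4 against 410.3 ± 7.68 (SD, n = 3). AXL had 5.78 ± 0.688 against 305 ± 7.91, whereas F3, tissue factor, had 245 ± 32.2 against 7.2 ± 1.04 (SD, n = 3). F3 was chosen after its values were seen. TGFB2 and CRIM1 had log2 ratios of -2.30 and -3.44. The knockdown and line comparisons share the PANC-1 siCtrl libraries.

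**Figure D5:**
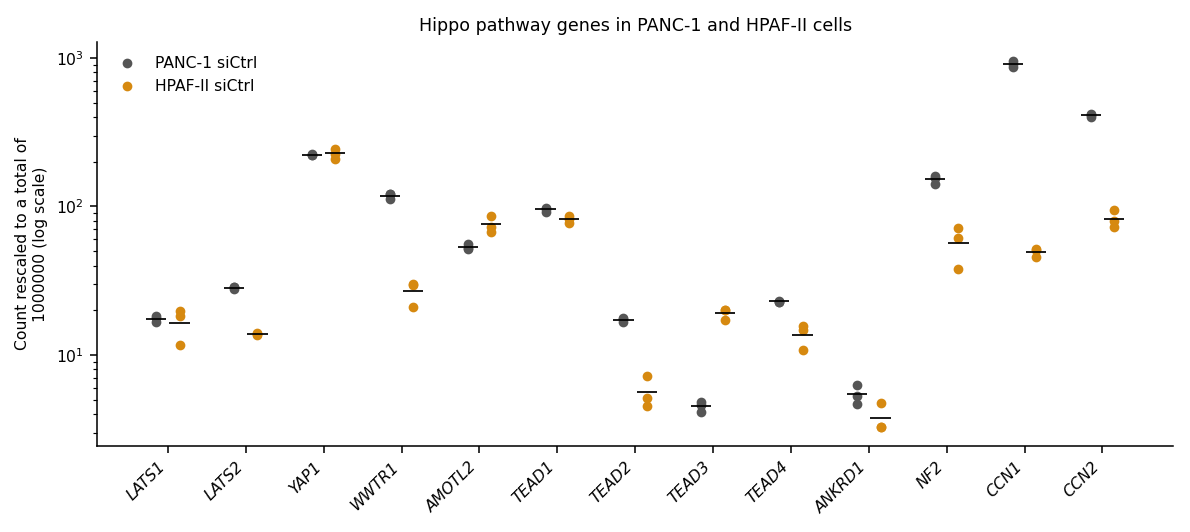
Rescaled counts (log scale) of the members, NF2, CCN1 and CCN2 in each siCtrl library of PANC-1 (gray) and HPAF-II (orange), with the mean as a line. YAP1 overlaps between the lines, WWTR1, TEAD2, LATS2, NF2, CCN1 and CCN2 are lower in HPAF-II, and TEAD3 is higher.

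Of 15250 genes with a symbol and a mean of at least 50, those most like each of 3 members over the 9 PANC-1 libraries were found by Pearson's r on log2 values. These r describe libraries that fall into 3 groups and share their normalization. For WWTR1 they were DDX41 (0.997), the joined gene KCNJ14 // GRWD1 (0.997) and GNB1 (0.996). DDX41, for instance, was at 71.6% of siCtrl in siQKI and at 87.9% in siRBFOX2 cells, the same order as WWTR1 with smaller changes. For YAP1 they were UXS1 (0.997), RASA2 (0.992) and TSPAN3 (0.99), of which TSPAN3 was at 109% in siQKI and at 52.7% in siRBFOX2 cells. For ANKRD1 they were MAPKAPK3 (0.977), GNL3L (0.976) and DERL1 (0.974). None of these 9 genes belongs to the lists used here.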

How the data were processed

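PANC-1 and HPAF-II cells were analysed by polyA RNA-seq (paired-end Illumina reads) with 3 biological replicates per group. The authors' processing notes name FastQC, Picard, SAMtools, STAR 2.7.5a, DESeq2 and hg38, with genes of FAST DB. The deposited values are a signal, i.e., gene counts that the authors divided by DESeq2 size factors, separately for each line. Every value was a whole multiple of a step per library (within 0.01), but 82.1% to 84.79% of values of 1 to 30 steps were multiples of 3. A step was therefore not taken as a read, and no count test was made. Strand and read-pair counting are not given in the sources used here. Of the 48114 genes, 21404 have no symbol.

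Values were tested with limma 3.58.1 (R 4.3.3; trend, 1 fit of the 3 PANC-1 groups) on log2(value + 1), so fold changes of low genes are understated, for genes with a mean of at least 10. The steps were tested on simulated data. Between lines, a pseudocount of 0.01 was used on values rescaled to a total of 1000000. The members and gene lists were chosen with earlier results of these data known. Named genes were the members, QKI, RBFOX2, CCN1, CCN2 and, per list and knockdown, up to 2 called genes with the largest rise and 2 with the largest fall (mean of at least 50), and the 3 genes most like YAP1, WWTR1 and ANKRD1. Alternatives were other pseudocounts, filters, scaling, a fit without trend, stricter thresholds, a replicate block and leaving out each library.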

Additional observations from a re-analysis of the deposited data

How the results depend on the processing

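WWTR1 kept its direction and call under all 17 alternatives, at -1.38 to -1.29 in siQKI and -0.53 to -0.47 in siRBFOX2 cells. With a fold change of at least 1.5 added to the threshold, 2, 0 and 2 members and 7, 4 and 5 other pathway genes remained past it for siQKI, siRBFOX2 and siQKI against siRBFOX2, beside 5, 5 and 6 members and 39, 34 and 23 others without it. At 4-fold between the lines, 2 members and 23 others differed, beside 4 and 38. The shares of all genes past these stricter fold rules were not computed, so these counts have no background beside them. Without 1 library, the counts of members were 4 to 5, 4 to 5 and 4 to 6, and of others 32 to 41, 30 to 35 and 20 to 24. Between the lines they were 4 and 36 to 38. Upper-quartile rescaling turned the direction of AMOTL2 in siQKI (0.03), TEAD2 in siRBFOX2 (0.02) and TEAD4 between the knockdowns (0.01), none of them called. TEAD2 in siRBFOX2 cells also turned in some fits without 1 library (range -0.09 to 0.05: 0.01 without siCtrl replicate 3, 0.0011 without siRBFOX2 replicate 2 and 0.05 without siRBFOX2 replicate 3), and TEAD4 without siRBFOX2 replicate 1 (0.03, range -0.05 to 0.03). The cause was not tested. LATS1 passed between the knockdowns without siQKI replicate 1 (0.23, adjusted p = 0.0446 from limma) or siRBFOX2 replicate 2 (0.24, 0.0205). Libraries of the same replicate number did not deviate together (r from -0.0325 to 0.0235), so the numbers were not taken to pair the samples. With the replicate block, 7336, 5891 and 4758 of all genes were called beside 7432, 5985 and 4844, and of the members TEAD2 in siQKI (adjusted p = 0.0632), and LATS2 (0.0517) and TEAD2 (0.0649) between the knockdowns, lost their calls.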
